A study of Mus musculus with 8 samples.

Results

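Mammary glands injected with vesicles from hypoxic tumor cells (sEVHYP) were compared with glands injected with control vesicles (sEVCTRL) across all genes of the deposited count table. The comparison took every library that the labels assign to hypoxia exosomes (2 libraries, sEVHYP 1 and 2) or to control (3 libraries, sEVCTRL 1 to 3), 5 of the 8 libraries of the series. The remaining 3 libraries came from glands given vesicles of normoxic tumor cells (sEVNORM). They entered the same model and so added to the estimate of the spread between libraries. Their values are given beside a result where they help to read it, for some genes with the difference of sEVHYP from sEVNORM in that model. All recipients were female, immunocompetent C57BL/6 mice, and the vesicles were placed in the abdominal mammary gland 6 weeks before RNA was taken. sEVHYP and sEVNORM are small extracellular vesicles shed by AT3, a mouse mammary adenocarcinoma cell line that metastasizes, grown in low or normal oxygen, and sEVCTRL are the vesicles of medium that no tumor cell had conditioned. sEVHYP and sEVCTRL therefore differ both in the presence of tumor cell material and in the oxygen of the donor culture, and these cannot be told apart by this comparison alone. The RNA was that of whole gland, so a lower level of a gene can mean fewer cells of a type or less RNA per cell, which cannot be told apart in bulk tissue. The labels name no batch. The study counts animals for this assay, and each library was taken to be 1 animal, which the labels do not state.

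Small extracellular vesicles carry proteins, lipids and RNA between cells, and vesicles of hypoxic tumor cells are studied for what they do to the tissue around a tumor. The mammary gland into which they were placed is a branching epithelium of luminal and basal (myoepithelial) cells inside a fat pad, with fibroblasts, vessels and immune cells. Cholesterol synthesis, described first among the pathways below, is switched as a unit: when sterol in the endoplasmic reticulum falls, SCAP carries the SREBP transcription factors to the Golgi, where they are cut and released to the nucleus. There they act on genes of the mevalonate pathway, together with the CCAAT-binding factor NF-Y, while INSIG1, itself a target, holds SCAP back.

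Total counts were between 18194996 and 21932810 for the 5 libraries compared. Levels are given as CPM, read counts scaled to library size with edgeR's TMM factors, and differences as log2 fold changes of sEVHYP over sEVCTRL with the standard error of the fit. The tissue label was borne out by its markers: luminal Krt8 was at 48.2 to 109 CPM, basal Krt14 at 4.01 to 5.70 CPM and the adipocyte gene Adipoq at 723 to 1581 CPM over these 5 libraries, and of the mammary markers Wap, a milk protein gene of lactation, was at 0 in every library. The libraries of one group were far from alike in cell content. The summed level of 28 skeletal muscle genes was 981, 13800 and 3379 CPM in sEVCTRL 1 to 3 and 7048 and 18720 CPM in sEVHYP 1 and 2. The summed level of 16 B and plasma cell genes was 15090, 4310 and 5374 CPM in the controls and 5955 and 3031 CPM in sEVHYP, highest in sEVCTRL 1. Muscle was thus lowest, and B cell and cell cycle RNA highest, in sEVCTRL 1 among the 5 libraries, and results that turn on one library are given with and without it.

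**Figure D1:**
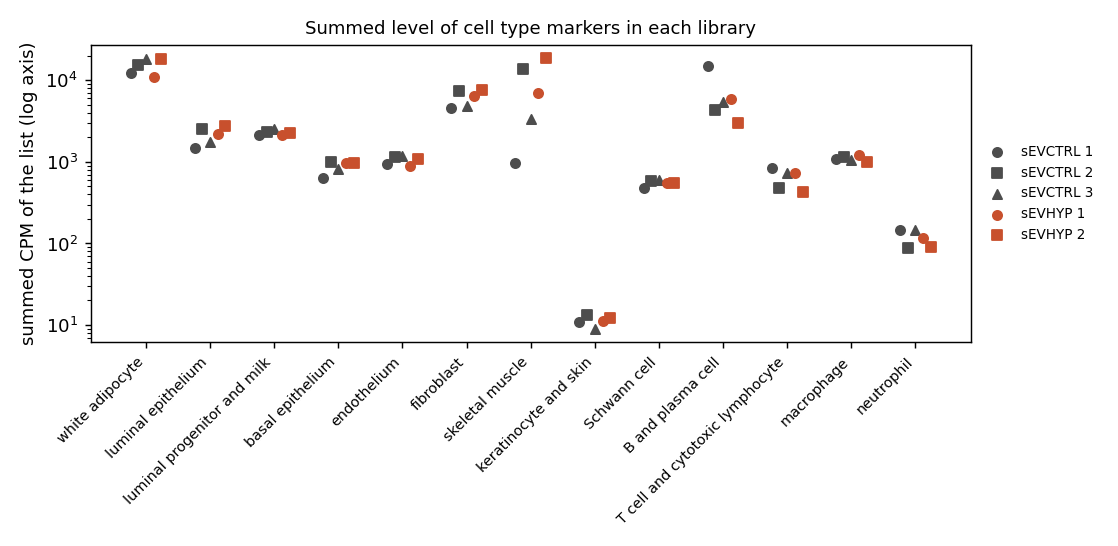
Summed CPM (log axis) of 13 lists of cell type markers in each of the 5 libraries, with sEVCTRL in grey, sEVHYP in orange and the shape giving the library number. Skeletal muscle spans 981 to 18720 CPM and B and plasma cell genes 3031 to 15090 CPM, with both groups overlapping, while most other lists lie within a narrow band.

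Of 51789 genes, 17858 had enough counts to be tested. The unadjusted P threshold of 0.05, the one the study states, was passed by 438 genes (2.45% of those tested), a smaller share than the threshold of 0.05 itself allows. They divided into 248 genes that were higher in sEVHYP (1.39%) and 190 that were lower (1.06%). After Benjamini-Hochberg adjustment over all genes, edgeR's quasi-likelihood test called 0 genes (0%), and the adjusted P was 0.9999 or above for every gene. For sEVHYP against sEVNORM the lowest edgeR adjusted P was 0.807. DESeq2 on the same 5 libraries called 14 of 25790 genes (0.0543%) and DESeq2 on all 8 libraries called 4. No overlap between the libraries of both groups was found for 2283 genes (12.8%), 1197 with every sEVHYP library higher (6.7%) and 1086 with every one lower (6.08%). For groups of 2 and 3 libraries this is a smaller share than a random order of the libraries gives. Lack of overlap is therefore a description of the values and no test. All calls below are therefore at the unadjusted threshold, and "passed" or "not passed" beside a change refers to it, with no call surviving adjustment in the edgeR fit. The median log2 fold change over all genes tested was -0.0152, and 47.5% of genes were higher in sEVHYP. Among genes that passed, the median change was 0.83 for the higher and -1.06 for the lower ones, and 226 and 163 of them showed no overlap between libraries. The count was 1472 without sEVCTRL 2 (5.51% of genes upward) and 425 without sEVCTRL 1 (1.47% upward). Of the 438 genes, 148 passed without sEVHYP 1 and 149 without sEVHYP 2, of 455 and 407 genes that passed in these fits (1.04% and 1.01% of genes upward). Each leaves a single sEVHYP library, which is assumed to vary like the other groups.

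Gene lists of 23 pathways and 13 cell types were read against these shares. Cholesterol synthesis stood out by count, with 8 of 20 genes passing upward against 1.39% of all genes. Major urinary proteins followed with 4 upward and 1 downward of 16. Collagens, basal epithelial genes, sterol sensors, thermogenic genes and patterning factors each had 3 upward calls and no downward ones. At the other end, 0 of 28 cell cycle genes, 0 of 26 interferon response genes, 0 of 33 chemokine ligands and 0 of 26 angiogenesis genes passed the edgeR test; DESeq2 at an unadjusted 0.05 on the same 5 libraries passed 0, 0, 1 and 0 of them. The members and the lists were chosen with earlier results of these data known, so these counts describe the comparison and do not test a theme.

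**Figure D2:**
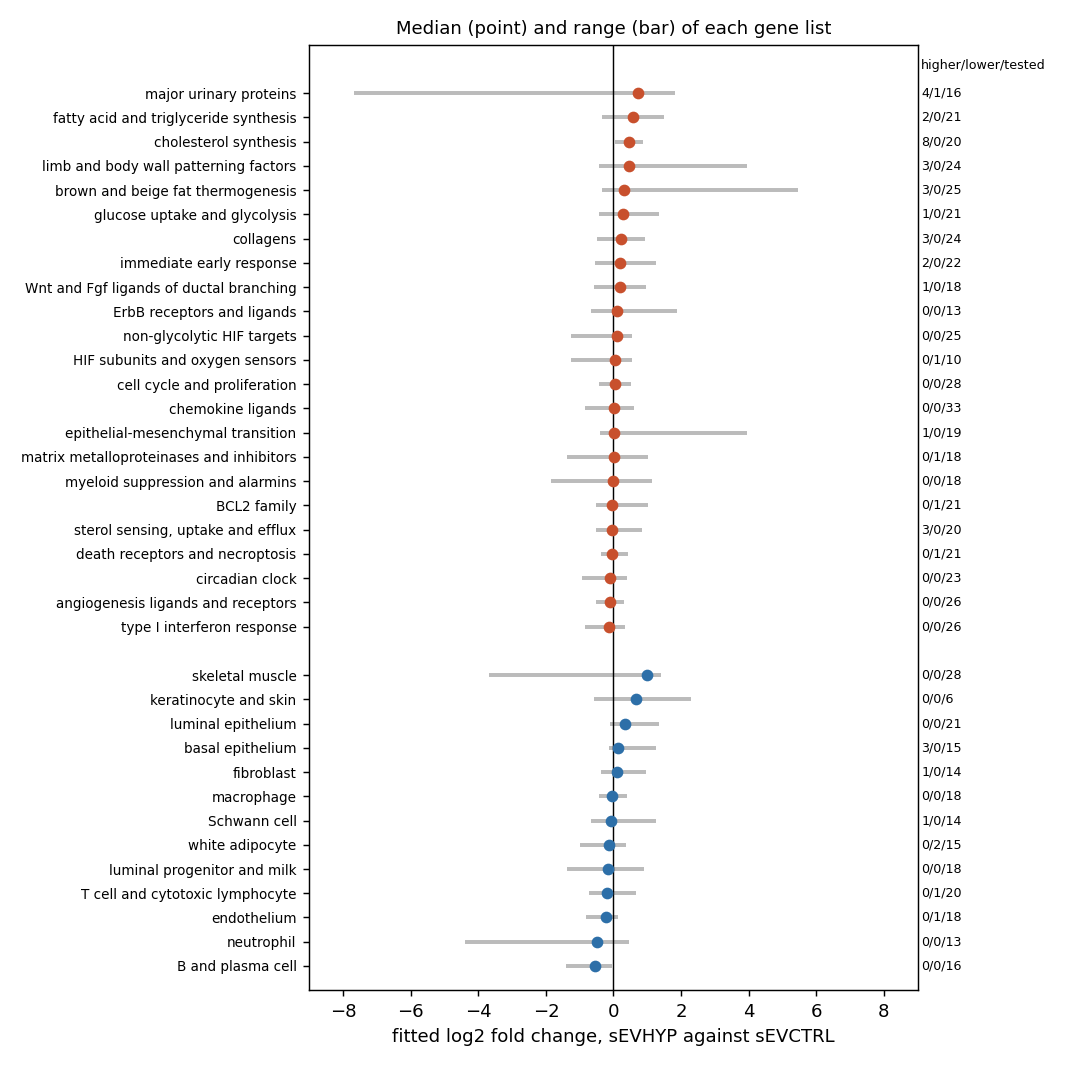
Median (point) and range (bar) of the fitted log2 fold change over the tested members of each list, pathways in orange and cell type markers in blue, with the number of members past the unadjusted threshold upward and downward and the number tested at the right. The line marks the median over all genes, -0.0152. Cholesterol synthesis has a median of 0.45 with its whole range above 0.

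Every one of the 20 cholesterol synthesis genes had a fitted change above 0 (0.0416 to 0.87, median 0.45), and 8 passed: Idi1, Hmgcs1, Hsd17b7, Nsdhl, Cyp51, Sqle, Msmo1 and Sc5d. Seen as a sum, the pathway was at 717, 551 and 749 CPM in sEVCTRL 1 to 3 and 1097 and 846 CPM in sEVHYP 1 and 2, and did not overlap. The promoter windows of the 5 genes with the smallest P are shown as a description, and a shared regulator was not tested. They are from RefSeq (build GRCm38.p6, 250 bases before to 50 after the start of transcription, 5′ to 3′ on the gene's strand). Capitals mark each CCAAT, read on either strand, and each sterol regulatory element of the form TCACNCCAC, read on either strand.
Idi1 (chr13:8885356-8885655, plus strand): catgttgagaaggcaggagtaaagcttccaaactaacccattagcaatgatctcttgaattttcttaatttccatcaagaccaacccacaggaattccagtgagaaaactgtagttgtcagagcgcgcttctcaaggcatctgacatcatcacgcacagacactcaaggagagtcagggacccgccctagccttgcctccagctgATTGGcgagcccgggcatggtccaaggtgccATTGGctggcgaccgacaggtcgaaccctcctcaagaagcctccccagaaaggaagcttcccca
Hmgcs1 (chr13:119690101-119690400, plus strand): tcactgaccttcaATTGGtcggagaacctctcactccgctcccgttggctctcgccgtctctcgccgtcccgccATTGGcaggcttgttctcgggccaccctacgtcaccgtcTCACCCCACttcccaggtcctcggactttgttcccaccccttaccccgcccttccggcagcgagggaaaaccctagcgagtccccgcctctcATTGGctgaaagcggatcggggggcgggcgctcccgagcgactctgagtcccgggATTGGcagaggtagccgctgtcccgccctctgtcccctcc
Hsd17b7 (chr1:169969156-169969455, minus strand): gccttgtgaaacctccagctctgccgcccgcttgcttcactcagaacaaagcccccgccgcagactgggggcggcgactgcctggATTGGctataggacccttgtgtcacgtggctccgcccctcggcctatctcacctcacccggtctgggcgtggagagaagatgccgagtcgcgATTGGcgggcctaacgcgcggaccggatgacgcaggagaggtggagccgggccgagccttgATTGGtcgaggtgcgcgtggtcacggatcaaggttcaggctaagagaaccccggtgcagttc
Nsdhl (chrX:72918271-72918570, plus strand): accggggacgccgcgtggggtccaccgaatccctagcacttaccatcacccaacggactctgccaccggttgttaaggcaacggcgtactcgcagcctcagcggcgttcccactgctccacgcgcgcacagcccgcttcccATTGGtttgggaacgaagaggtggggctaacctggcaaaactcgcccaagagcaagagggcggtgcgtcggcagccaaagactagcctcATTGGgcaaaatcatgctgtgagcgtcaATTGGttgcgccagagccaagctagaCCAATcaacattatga
Cyp51 (chr5:4104648-4104947, minus strand): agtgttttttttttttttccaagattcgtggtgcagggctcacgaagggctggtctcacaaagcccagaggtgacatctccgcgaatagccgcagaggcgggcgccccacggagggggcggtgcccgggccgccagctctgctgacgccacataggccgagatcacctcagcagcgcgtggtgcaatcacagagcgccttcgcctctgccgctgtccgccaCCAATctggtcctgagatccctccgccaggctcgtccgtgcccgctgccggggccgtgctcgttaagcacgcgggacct
Of the cholesterol genes with a window, 14 of 15 held a CCAAT (93.3%), against 41.1% of the 27025 genes in the same table. The share was also above that of all genes for fatty acid and triglyceride genes (11 of 16, 68.8%) and sterol sensing, uptake and efflux genes (9 of 16, 56.2%). Nsdhl and Hmgcs1 each had 4 matches, Hsd17b7 had 3, Idi1 had 2 and Cyp51 had 1. The sterol element was found in 1 of these 15 genes (6.67%, Hmgcs1) and in 1.44% of all genes, its first base lying 137 bases before the start. A match is a description of letters, and its absence says nothing about binding.

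The pathway can be followed in order. Hmgcs1, which makes HMG-CoA at the entry to the mevalonate pathway, was at 55.6, 61.6 and 62.5 CPM in sEVCTRL 1 to 3 and 92.6 and 90.5 CPM in sEVHYP 1 and 2. Both sEVHYP libraries were above all controls, and the change was 0.61 ± 0.17 (passed). Against sEVNORM, at 43.8, 57.2 and 43.0 CPM, the change of Hmgcs1 in the same model was 0.93 ± 0.17 (passed).

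Idi1, which interconverts the isoprenoid building blocks, was at 94.5, 78.5 and 61.7 CPM in the controls and 140.2 and 118 CPM in sEVHYP, without overlap (0.72 ± 0.19, passed). The next enzymes, Fdps and Fdft1, which lead to squalene, did not pass (0.44 ± 0.37 and 0.17 ± 0.22), and both overlapped the controls. Sqle, squalene epoxidase, went from 22.1, 13.8 and 16.9 CPM to 33.9 and 23.1 CPM, every sEVHYP value above the controls but sEVHYP 2 by little (0.70 ± 0.24, passed).

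The block of post-squalene enzymes that strip methyl groups from lanosterol held most of the remaining calls. Cyp51, lanosterol 14-alpha demethylase, was at 29.96, 16.4 and 22.6 CPM in the controls and 48.8 and 33.1 CPM in sEVHYP (0.83 ± 0.27, passed). Nsdhl, which removes the C4 carboxyl group, was at 64.5, 35.7 and 57.4 CPM and 113 and 79.3 CPM, the largest change of the list (0.87 ± 0.26, passed). Hsd17b7, the ketoreductase of the same complex, was at 13.2, 17.1 and 11.9 CPM and 26.2 and 21.3 CPM (0.76 ± 0.21, passed). In all of these sEVHYP 1 was the higher of both sEVHYP libraries, and no sEVHYP value fell into the control range. Msmo1 (0.49 ± 0.19, passed) and Sc5d (0.50 ± 0.20, passed) passed with smaller changes, and Sc5d overlapped, since sEVCTRL 3 at 214 CPM was above sEVHYP 2 at 211 CPM. Dhcr7, of the last steps, did not pass (0.46 ± 0.23).

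Sterol genes depended on sEVHYP 1. Without it the median of the cholesterol list was 0.13 and 2 members passed, Idi1 and Hmgcs1 among the 5 with the smallest P, while Hsd17b7 (0.60), Nsdhl (0.60) and Cyp51 (0.53) kept their direction without passing. The same 5 genes passed with any one of the other 7 libraries left out.

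**Figure D3:**
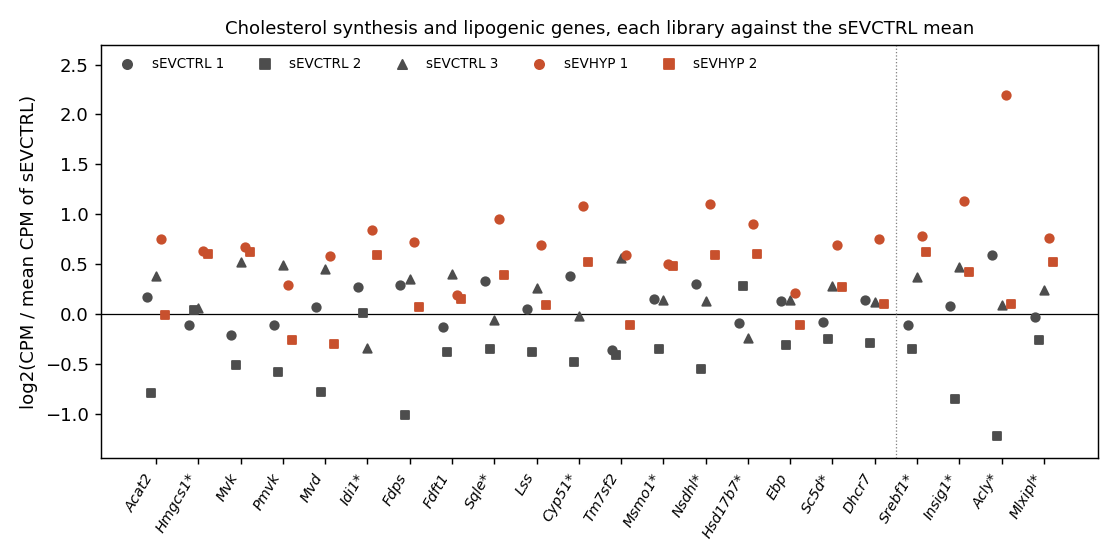
Level of 18 of the 20 cholesterol synthesis genes (left, in pathway order) and of 4 sterol-responsive or lipogenic genes (right) in each library, as log2 of CPM over the sEVCTRL mean, with an asterisk for genes past the unadjusted threshold. sEVHYP 1 is above the sEVCTRL mean for all 22 genes, sEVHYP 2 lies between -0.31 and 0.62, and sEVCTRL 2 is the lowest control for 19 of them.

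Genes of sterol sensing, uptake and efflux had no common direction. Of 20 tested, 3 passed upward and 0 downward, with a list median of -0.0374. Srebf1, which encodes SREBP-1, was at 38.5, 32.6 and 53.7 CPM in sEVCTRL and 71.6 and 63.9 CPM in sEVHYP, without overlap (0.70 ± 0.22, passed). Insig1 was at 97.1, 50.6 and 127 CPM and 201 and 123 CPM, so that sEVCTRL 3 exceeded sEVHYP 2 (0.82 ± 0.35, passed). Against sEVNORM the differences were 0.76 ± 0.22 for Srebf1 (passed) and 1.04 ± 0.35 for Insig1 (passed). Srebf2, Scap and the site proteases Mbtps1 and Mbtps2, which form the machinery itself, were within -0.27 and 0.17 and did not pass. Stard4, a sterol carrier that SREBP is also known to regulate, was at -0.0246 ± 0.23 and did not pass. Nor did the efflux genes Abca1 (0.0548 ± 0.23) and Abcg1 (0.0617 ± 0.22), which oxysterol receptors switch on when sterol is plentiful. Apoe, the lipoprotein that carries sterol away, was lower in both sEVHYP libraries (696, 630.2 and 896 CPM against 458 and 578 CPM) (-0.52 ± 0.23, not passed). Without sEVHYP 1 no gene of this list passed (Srebf1 0.62, Insig1 0.42), and Insig1 also missed the threshold without any one of sEVCTRL 1, sEVCTRL 2 or the 3 sEVNORM libraries.

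Fatty acid and triglyceride genes were higher in 19 of 21 (median 0.57), but 2 passed. Mlxipl, the carbohydrate-responsive factor ChREBP, was at 40.9, 34.8 and 49.3 CPM in sEVCTRL and 70.7 and 59.7 CPM in sEVHYP, without overlap (0.65 ± 0.21, passed). Acly, which makes cytosolic acetyl-CoA from citrate, was at 512, 146 and 361 CPM and 1554 and 363 CPM (1.497 ± 0.62, passed). That call rested on sEVHYP 1: without it the change of Acly was 0.0998 and that of Mlxipl, which then did not pass, 0.52. The same shape was seen in genes that did not pass. Fasn, fatty acid synthase, was at 1327, 366 and 1830 CPM in the controls and 2442 and 1067 CPM in sEVHYP (0.58 ± 0.59, not passed), and Elovl6, which elongates its product, at 434, 95.3 and 396 CPM and 1109 and 216 CPM (1.10 ± 0.70, not passed). In each of Acly, Fasn and Elovl6 the lowest of the 5 values was sEVCTRL 2 and the highest sEVHYP 1. The median of the list was 0.22 without sEVCTRL 2 and 0.0833 without sEVHYP 1. Scd1, the stearoyl-CoA desaturase, went the other way (-0.34 ± 0.35, not passed).

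Thermogenic genes of brown and beige fat were higher in 18 of 25 (median 0.32), and 3 passed, all upward. Ucp1, the uncoupling protein of brown fat, had 0.203, 0 and 0 CPM in sEVCTRL 1 to 3 and 0.321 and 6.16 CPM in sEVHYP 1 and 2, so that sEVHYP 1 was close to a control and sEVHYP 2 alone was high. The fitted change of 5.47 ± 1.75 (passed) was 2.15 without sEVHYP 2 and then did not pass. It was 9.12 without sEVCTRL 1, which held 4 counts, all those of the controls, and Ucp1 had too few counts to be tested without sEVNORM 2. In sEVNORM the Ucp1 level was 0.0402, 2.04 and 0.331 CPM, and sEVHYP did not pass against it. Dio2, the deiodinase that makes active thyroid hormone in brown fat, was at 1.73, 1.64 and 1.37 CPM and 3.89 and 15.9 CPM (2.64 ± 0.75, passed), and 1.29 without sEVHYP 2, no longer passing. A gene on the opposite strand, Gm26512, overlaps Dio2. Acot11, a thioesterase of brown fat, was at 1.68, 1.41 and 2.30 CPM and 3.71 and 2.89 CPM (0.88 ± 0.37, passed), and missed the threshold without either sEVHYP library, sEVCTRL 1, sEVCTRL 2 or sEVNORM 1. The regulators of the program had smaller fitted changes: Ppargc1a 0.35 ± 0.39, Prdm16 -0.0817 ± 0.29 and Cidea 0.13 ± 0.42, none of which passed. Skeletal muscle genes were higher in 22 of 28 (median 0.98, which was 2.60 without sEVCTRL 2, 0.48 without sEVCTRL 1 and 0.19 without sEVHYP 2) and none passed with edgeR or DESeq2. Their level, highest in sEVHYP 2, moved with Cox7a1 and Cpt1b of this list, which are also muscle genes (1.57, 9.62 and 3.83 CPM in sEVCTRL and 9.53 and 15.1 CPM in sEVHYP for Cox7a1), and its part in them was not tested.

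Glycolysis genes were higher in 18 of 21 (median 0.29), with 1 call. Pkm, pyruvate kinase M, was at 161, 142 and 184 CPM in sEVCTRL and 216 and 209 CPM in sEVHYP, without overlap (0.39 ± 0.16, passed), but missed the threshold without any single library other than sEVCTRL 3. Ldha, which turns pyruvate into lactate, was at 594, 548 and 619 CPM and 776 and 773 CPM, without overlap (0.40 ± 0.21, not passed), and Gapdh at 354, 382 and 475 CPM and 561 and 581 CPM, likewise (0.50 ± 0.24, not passed). Slc16a3, a lactate transporter, had the largest fitted change of the list (1.35 ± 0.68) and did not pass. Large fitted changes were also those of the muscle isoforms Eno3 (1.204 ± 0.88), Pgam2 (1.16 ± 1.16) and Pfkm (0.99 ± 0.86), whose levels followed the muscle sum in these libraries (Eno3 at 19.96, 178 and 49.2 CPM in sEVCTRL and 117 and 263 CPM in sEVHYP) and did not pass. Slc2a1, the glucose transporter GLUT1 that hypoxia is known to raise, was at 29.7, 23.4 and 23.3 CPM and 31.5 and 22.9 CPM (0.0935 ± 0.21, not passed).

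Genes of hypoxia signalling were read at the RNA level only, which does not measure HIF protein or its activity. Of 10 subunits and oxygen sensors, 1 passed: Hif3a, an inhibitory alpha subunit, was at 6.399, 7.93 and 5.91 CPM in sEVCTRL and 2.75 and 2.89 CPM in sEVHYP, the latter below all controls (-1.26 ± 0.47, passed). The change of Hif3a was -1.12 without sEVCTRL 2, -1.22 without sEVHYP 1 and -1.31 without sEVHYP 2, and passed in none of these. Hif1a was at 366, 428 and 252 CPM and 403 and 453 CPM, overlapping (0.30 ± 0.30, not passed). None of 25 non-glycolytic HIF targets passed the edgeR test and 1 passed with DESeq2, with a median of 0.0932. Vegfa, the main angiogenic target, was at 58.8, 88.5 and 76.0 CPM in sEVCTRL and 61.7 and 113 CPM in sEVHYP (0.23 ± 0.27, not passed), a change of 0.61 that passed without sEVHYP 1 and of -0.28 without sEVHYP 2.

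Most vessel genes had small fitted changes below 0. Of 18 endothelial markers 17 had a change below 0 (median -0.22, and -0.0300 without sEVHYP 1) and 1 passed, Sox18, a vascular transcription factor, at 22.9, 15.9 and 35.6 CPM in sEVCTRL and 11.04 and 17.4 CPM in sEVHYP. These groups overlapped (-0.80 ± 0.33, passed), and the change was -0.45 without sEVCTRL 3 and -0.50 without sEVHYP 1, neither of which passed, and the call was also lost without sEVCTRL 1, sEVNORM 1 or sEVNORM 3. Pecam1, which encodes CD31, was at 256, 242 and 299 CPM and 218 and 215 CPM, without overlap (-0.29 ± 0.16, not passed). Tie1, a receptor of the angiopoietin system, was the angiogenesis gene with the smallest P (13.3, 14.1 and 18.4 CPM against 9.85 and 11.6 CPM, -0.51 ± 0.23, not passed). The list of 26 angiogenesis ligands and receptors had a median of -0.11, which was 0.0558 without sEVHYP 1 and 0.0197 without sEVCTRL 2.

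Several of the largest changes lay in genes outside the pathways described so far. Of 19 epithelial-mesenchymal transition genes tested (median 0.0199), 1 passed, Lbx1, which is also among the patterning factors. Lbx1 (chr19:45232684-45235812, minus strand, GRCm38), a homeobox factor of migrating limb muscle precursors, had the smallest P of all genes. Its level was 0.406, 0.593 and 0.274 CPM in sEVCTRL 1 to 3 and 3.57 and 9.80 CPM in sEVHYP 1 and 2, from 5 to 13 counts in a control and 78 and 183 counts in sEVHYP, a change of 3.94 ± 0.64 (passed). In sEVNORM it was at 0.241, 0.0443 and 0.331 CPM, and sEVHYP differed from sEVNORM by 4.99 ± 0.69 (passed). The call held with any one of the 8 libraries left out. Summed muscle genes were at 981, 13800 and 3379 CPM in sEVCTRL 1 to 3 and 7048 and 18720 CPM in sEVHYP 1 and 2. In sEVNORM 1 to 3 the summed muscle genes were at 4498, 86.0 and 2382 CPM. The part of muscle content in the level of Lbx1 was not tested.

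Other limb and body wall factors were higher in 19 of 24 (median 0.45), and 3 passed, Lbx1 included. Alx4 (chr2:93642384-93681339, plus strand), an aristaless-type homeobox factor of mesenchyme, was at 1.88, 2.55 and 1.81 CPM in sEVCTRL and 10.4 and 7.65 CPM in sEVHYP (2.11 ± 0.53, passed), a call kept with any library left out. Its level in sEVNORM was 1.77, 7.05 and 2.41 CPM, of which sEVNORM 2 came close to sEVHYP 2, and the sEVHYP difference from sEVNORM was 1.27 ± 0.52 (passed). Tbx18, a T-box factor, was at 5.43, 9.17 and 7.55 CPM and 11.2 and 11.7 CPM (0.63 ± 0.25, passed), and missed the threshold without either sEVHYP library or without sEVCTRL 1 or 3. Tbx3, needed to form the mammary bud (0.62 ± 0.30), and Shox2 (0.45 ± 0.28) did not pass. With sEVCTRL 2 left out, 9 of 24 members passed upward, against 5.51% of all genes in that fit, and the list median was 0.18 without sEVHYP 2.

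By size, the list of genes with non-overlapping libraries and at least 1 CPM in a group was led by Prn, Ucp1, Gm12248, Lbx1, Gm11953, Sprr1a, Npy2r, Dio2, Gm3436 and Sim1. Prn (chr2:131909957-131956130, plus strand) covers the prion genes Prnp and Prnd on the same strand, and reads may be divided among them. It had 0 CPM in every control and 1.51 and 2.68 CPM in sEVHYP, at least 13.9-fold higher when the controls are set at 3 counts per library (passed). Prn was also counted in sEVNORM, at 2.01, 0 and 0.757 CPM, and sEVHYP did not pass against it. Gm12248 (chr11:58063552-58093134, minus strand), a predicted gene of unknown role, showed the same kind of on and off pattern: 0.254, 0.547 and 0.383 CPM in sEVCTRL, 7.79 and 9.05 CPM in sEVHYP and 0.201, 7.45 and 0.189 CPM in sEVNORM (4.38 ± 1.34, passed), so 1 sEVNORM library was nearly as high as sEVHYP.

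The other names of this group were low. Sprr1a, a component of the cornified envelope, was at 0.152, 0.0456 and 0.602 CPM in sEVCTRL and 3.07 and 1.07 CPM in sEVHYP (2.97 ± 1.25, passed). Npy2r, a neuropeptide Y receptor, was at 0.305, 0.319 and 0 CPM and 1.15 and 1.61 CPM (2.66 ± 1.06, passed), and Sim1, a factor of hypothalamic neurons, at 0.0508, 0.456 and 0.164 CPM and 0.641 and 2.14 CPM (2.57 ± 1.10, passed). Gm11953 and Gm3436 are processed pseudogenes, and their reads may come from parent genes (3.21 ± 0.92 and 2.62 ± 0.86). Each of these 5 lost its call without at least 1 sEVHYP library, and Sprr1a, Npy2r and Sim1 also without at least 1 control. At the lower end Gm10163, likewise a processed pseudogene, was at 3.40, 0.638 and 1.92 CPM in sEVCTRL and 0 in both sEVHYP libraries, at least 13.3-fold lower (passed), and the remaining 9 genes were Mup8 and 8 antibody segments.

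**Figure D4:**
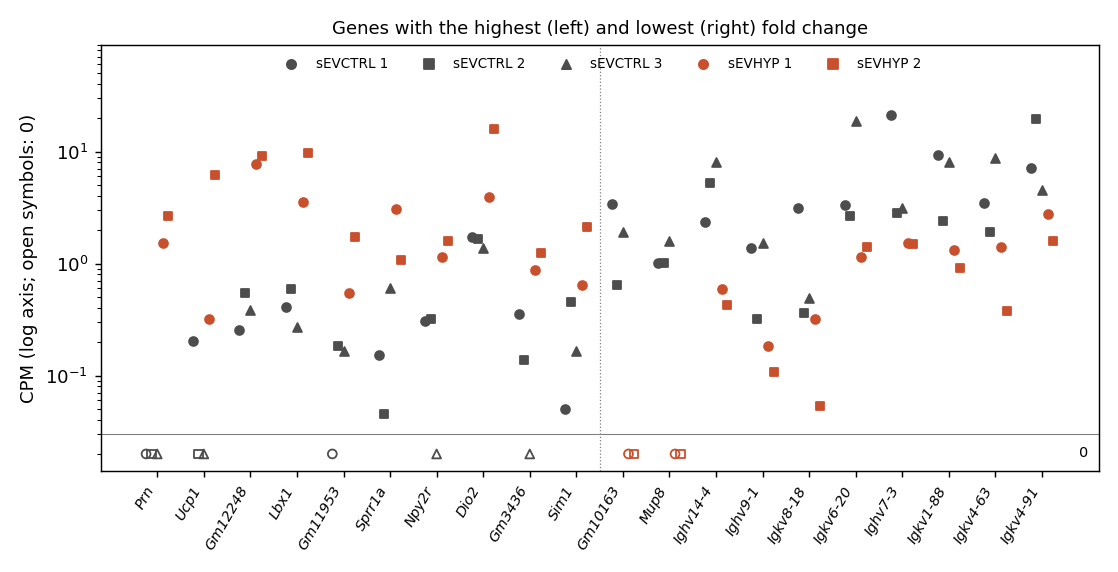
CPM (log axis) in each library of the 10 genes with the highest and the 10 with the lowest fold change among genes that passed without overlap and reached a group mean of 1 CPM; open symbols under the line are libraries at 0. Prn is at 0 in all 3 controls, Mup8 and Gm10163 are at 0 in both sEVHYP libraries, and Ucp1 is high in sEVHYP 2 only.

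Major urinary proteins, lipocalins that carry pheromones and are made by liver, mammary and other glands from a cluster of near-identical genes on chromosome 4, were higher in 15 of 16 (median 0.74). Reads may be assigned to the wrong copy, so single members are uncertain. Their sum was 659, 249 and 506 CPM in sEVCTRL and 876 and 1138 CPM in sEVHYP, without overlap. Mup10 (chr4:60578260-60582199, minus strand) was at 169.9, 83.8 and 58.7 CPM and 319 and 423 CPM (1.83 ± 0.42, passed), and passed with any library left out. Mup9 (1.48 ± 0.50, passed), Mup15 (1.09 ± 0.44, passed) and Mup11 (1.05 ± 0.45, passed) passed as well, and each lost its call without sEVHYP 2, Mup15 and Mup11 also without sEVHYP 1. Mup8 (chr4:60218621-60222599, minus strand) went against the family: 1.02, 1.00 and 1.59 CPM in sEVCTRL and 0 in both sEVHYP libraries, at least 8.07-fold lower (passed), with 0.563, 2.57 and 3.55 CPM in sEVNORM.

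Luminal epithelium was higher in 19 of 21 markers (median 0.34), but none passed the edgeR test (1 with DESeq2 on these 5 libraries). Krt8 was at 48.2, 62.5 and 94.8 CPM in sEVCTRL and 95.1 and 109 CPM in sEVHYP, sEVCTRL 3 nearly reaching sEVHYP 1 (0.58 ± 0.28, not passed). Areg, the estrogen-induced ErbB ligand of ductal growth, was at 24.3, 79.3 and 27.8 CPM and 95.5 and 126 CPM, without overlap (1.34 ± 0.73, not passed). Hormone receptors did not pass either, with Pgr at 0.67 ± 0.46, Esr1 at 0.18 ± 0.32 and Prlr at 0.45 ± 0.35. Luminal progenitor and milk genes went the other way, with 5 higher and 13 lower of 18 (median -0.16). None of these passed the edgeR test, and 1 passed with DESeq2 on these 5 libraries. Btn1a1, a milk fat globule gene of that list, was lower in both sEVHYP libraries (12.3, 26.9 and 18.5 CPM against 9.12 and 10.97 CPM) (-0.94 ± 0.47, not passed). Without sEVCTRL 2, 7 of the 21 luminal markers passed upward, against 5.51% of all genes in that fit. The median of these 21 markers was 0.20 to 0.52 with one library left out.

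Basal markers had 3 upward calls of 15 (median 0.14, -0.0134 to 0.42 with one library left out). Actg2, the enteric smooth muscle actin that myoepithelial cells also make, was at 6.20, 11.7 and 6.62 CPM in sEVCTRL and 19.4 and 13.4 CPM in sEVHYP (1.00 ± 0.33, passed). Oxtr, the oxytocin receptor of milk ejection, was at 45.9, 62.3 and 53.9 CPM and 99.1 and 83.8 CPM (0.76 ± 0.28, passed), and Cnn1, calponin, at 13.2, 18.8 and 13.3 CPM and 23.7 and 21.4 CPM (0.58 ± 0.25, passed). None of these overlapped. Other members of the list did not pass: the contractile genes Acta2 (0.39 ± 0.24) and Tagln (0.24 ± 0.22), smooth muscle myosin Myh11 (-0.0895 ± 0.26), and Krt14 0.0266 ± 0.35, Krt5 0.00554 ± 0.34 and Trp63 -0.13 ± 0.53. The 3 calls were lost without sEVHYP 1 (Actg2 0.71, Oxtr 0.64, Cnn1 0.50), and those of Oxtr and Cnn1 also without sEVCTRL 1 or sEVCTRL 3. Wnt5a, a non-canonical Wnt ligand that restrains ductal branching, was the one Wnt or Fgf gene of 18 that passed, at 22.4, 32.0 and 18.8 CPM and 39.2 and 40.1 CPM (0.70 ± 0.22, passed), with any library left out.

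A few matrix genes rose. Of 24 collagens 18 were higher (median 0.22), and 3 passed. Col3a1, the main collagen of reticular fibers, was at 946, 1393 and 939 CPM in sEVCTRL and 1653 and 1699 CPM in sEVHYP (0.62 ± 0.24, passed). Its partners in fibril assembly, Col5a2 (0.44 ± 0.18, passed) and Col5a1 (0.38 ± 0.17, passed), did not overlap either. Basement membrane collagens did not pass, with Col4a1 at -0.00669 ± 0.27 and Col4a2 at -0.10 ± 0.27. The collagen sum was 3039, 4000 and 3313 CPM in sEVCTRL and 4273 and 4708 CPM in sEVHYP, yet 0 collagens passed without sEVCTRL 1 or without sEVHYP 2, and 7 of 24 passed upward without sEVCTRL 2, against 5.51% of all genes in that fit. The collagen median was 0.0324 to 0.49 with one library left out. Vcan (chr13:89655312-89742509, minus strand), versican, a proteoglycan of provisional matrix, was among the 10 genes with the smallest P at 28.0, 23.9 and 26.2 CPM and 52.4 and 37.8 CPM (0.80 ± 0.18, passed). So was Adamts18, a secreted metalloprotease, at 0.559, 1.46 and 0.602 CPM and 3.62 and 3.37 CPM (1.98 ± 0.46, passed). Both passed with any library left out. Adamts18 was at 2.62, 2.13 and 1.70 CPM in sEVNORM and the sEVHYP difference from it did not pass. Mmp12, macrophage elastase, was lower at 3.71, 10.9 and 12.1 CPM in sEVCTRL and 2.29 and 4.55 CPM in sEVHYP, with overlap (-1.38 ± 0.51, passed), and missed the threshold without sEVHYP 1 or without sEVCTRL 2 or 3.

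Antibody genes made up most of the largest decreases: 8 of the 10 lowest genes were immunoglobulin variable segments. Variable segments are short and alike, so their counts are uncertain one by one, and the grouping by locus was made after their values were seen. Over all genes tested, 1.06% passed downward and 1.39% upward. Of 73 heavy chain segments tested, 58 were lower and 11 passed downward against 1 upward (median -0.90), and of 84 kappa segments 71 were lower and 13 passed downward against 1 upward (median -1.08). All 12 constant region genes had a change below 0 and 2 passed, Ighg2b and Ighg2c, with -2.13 ± 0.59 for the latter (passed). Of the 8 segments Ighv14-4 (chr12:114176438-114176867, minus strand) had the smallest P, at 2.34, 5.29 and 8.04 CPM in sEVCTRL and 0.596 and 0.428 CPM in sEVHYP (-3.33 ± 0.71, passed). In sEVNORM it was at 0.523, 1.82 and 0.852 CPM and sEVHYP did not differ from it past the threshold. This call held with any library left out. The other 7, Ighv9-1, Igkv8-18, Igkv6-20, Ighv7-3, Igkv1-88, Igkv4-63 and Igkv4-91, had changes of -2.81 to -2.25, and each missed the threshold without one of the sEVHYP libraries. Without sEVCTRL 3 the change of Igkv6-20 went from -2.70 to -1.24 and that of Igkv4-63 from -2.37 to -1.56. Without sEVCTRL 2 that of Igkv4-91 went from -2.25 to -1.405. Ighv7-3 and Igkv8-18 also rested on sEVCTRL 1. Ighv7-3 was at 21.2, 2.83 and 3.12 CPM in sEVCTRL 1 to 3 and 1.51 and 1.499 CPM in sEVHYP, a change of -2.58 that was -0.98 without sEVCTRL 1, and that of Igkv8-18 went from -2.76 to -1.14. The summed constant regions were at 16800, 3339 and 4679 CPM in sEVCTRL and 5561 and 2299 CPM in sEVHYP, which overlap.

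**Figure D5:**
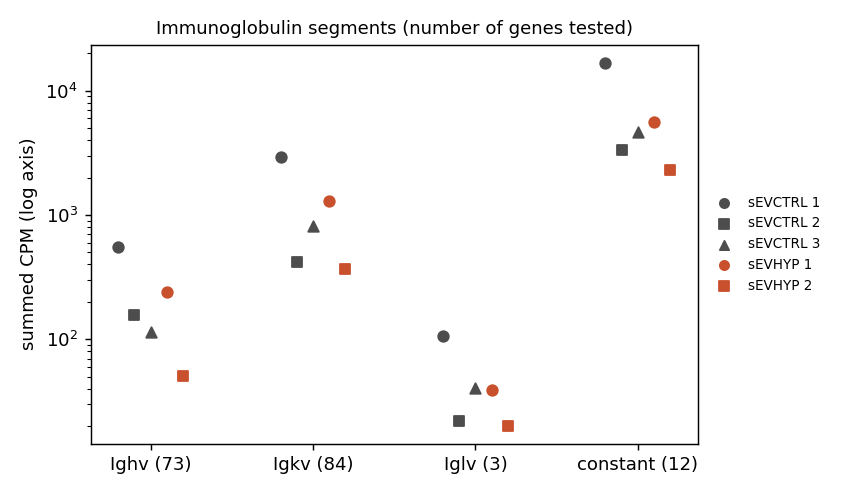
Summed CPM (log axis) of the immunoglobulin heavy variable, kappa variable, lambda variable and constant genes in each library, with the number of genes tested in brackets. sEVCTRL 1 is highest in all 4 groups and sEVHYP 2 lowest, and sEVHYP 1 lies within the range of the controls in all 4.

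The summed B and plasma cell markers showed the same order of libraries as the constant regions. Ighm, Ighd, Igha and Igkc are in both sums, so these orders are not independent. All 16 B and plasma cell markers had a change below 0 (median -0.54) and none passed the edgeR test (2 passed with DESeq2 on these 5 libraries). Without sEVCTRL 1 the median was -0.0131, and without sEVHYP 1 it was -1.16. Jchain, which joins secreted antibody, was at 1224, 254 and 198 CPM in sEVCTRL and 247 and 176 CPM in sEVHYP (-1.40 ± 0.80). Of 20 T cell and cytotoxic markers 18 were below 0 (median -0.19, but 0.0939 without sEVHYP 2), and Klrb1c, the NK1.1 receptor of natural killer cells, passed at 6.91, 6.25 and 6.02 CPM and 4.49 and 3.27 CPM (-0.72 ± 0.26, passed), though not without sEVHYP 2.

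Macrophage markers (8 higher, 10 lower) and alarmins (9 and 9) showed no common direction, while neutrophil markers were higher in 2 and lower in 11. By the edgeR test none of 18 macrophage markers passed (median -0.0348, -0.21 to 0.15 with one library left out), none of 13 neutrophil markers (median -0.50, or -0.36 with Camp, at 0 in both sEVHYP libraries, set at its bound, and -0.81 to -0.16 with one library left out) and none of 18 alarmins, against 0, 1 and 0 with DESeq2 on these 5 libraries. S100a9, a neutrophil alarmin, was at 23.2, 2.10 and 11.1 CPM in sEVCTRL and 5.13 and 1.55 CPM in sEVHYP, overlapping (-1.84 ± 1.01, not passed). Cd300ld5, a receptor gene of the CD300 cluster on chromosome 11, was outside these lists: 29.5, 35.1 and 41.8 CPM in the controls and 15.2 and 10.9 CPM in sEVHYP, less in both than in any control (-1.44 ± 0.32, passed). The call held with any library left out. Interferon response genes were below 0 in 19 of 26 (median -0.14, but 0.23 without sEVCTRL 2), and Ifit2, with the smallest P, had one high library, sEVCTRL 2 (15.9, 54.3 and 14.8 CPM in sEVCTRL and 16.5 and 15.3 CPM in sEVHYP).

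Proliferation and cell death gave few calls. Cell cycle genes divided evenly, 14 higher and 14 lower (median 0.0368), and Mki67 was at 329.7, 69.1 and 76.5 CPM in sEVCTRL and 190.2 and 108 CPM in sEVHYP (-0.0901 ± 0.63, not passed). sEVCTRL 1 was the highest library for Mki67, and without it the list median was 0.82 and 15 of the 28 genes passed upward, against 1.47% of all genes in that fit. Without sEVHYP 1 the median was -0.46 and 0 passed. Bcl2l1, which encodes the survival protein BCL-XL, was lower at 17.3, 19.4 and 23.1 CPM and 13.0 and 14.9 CPM (-0.51 ± 0.19, passed), not without sEVHYP 1 or sEVCTRL 3. Fas, the death receptor, was lower at 45.5, 43.6 and 45.1 CPM and 32.0 and 37.0 CPM (-0.38 ± 0.15, passed), though not without either sEVHYP library, sEVCTRL 1, sEVNORM 1 or sEVNORM 2.

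Immediate early genes had 2 upward calls of 22. Egr2 was at 2.39, 2.23 and 2.96 CPM in sEVCTRL and 7.92 and 4.17 CPM in sEVHYP (1.26 ± 0.33, passed), which was 0.73 and not past the threshold without sEVHYP 1, and Nr4a1 at 8.94, 15.1 and 8.43 CPM and 13.9 and 21.5 CPM, with overlap (0.71 ± 0.31, passed), a call that was lost without any one of 5 libraries. No clock gene of 23 passed the edgeR test, and 1 did with DESeq2. In white fat, Mest, a marker of adipocyte expansion, fell from 14.6, 24.3 and 34.2 CPM to 10.8 and 13.9 CPM (-0.98 ± 0.35, passed) and Npr3, which clears natriuretic peptides, from 107, 166 and 175 CPM to 68.3 and 102 CPM (-0.81 ± 0.32, passed), while Plin1 (0.0827 ± 0.31) and Fabp4 (-0.12 ± 0.31) did not pass. The sEVHYP values of Mest lay within those of sEVNORM, at 10.8, 10.3 and 15.7 CPM. Both calls were lost without sEVHYP 1 or sEVCTRL 3.

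Among the 10 genes with the smallest P, 7 have no place in these lists, and 3 of them are not yet described. 2610035D17Rik (chr11:113043895-113201838, minus strand), a long intergenic RNA of unknown role, was at 15.9, 16.3 and 14.5 CPM in sEVCTRL and 7.56 and 8.51 CPM in sEVHYP (-0.96 ± 0.20, passed), and at 15.7, 20.7 and 19.3 CPM in sEVNORM. Echdc1 (chr10:29313166-29347469, plus strand), which repairs a side product of acetyl-CoA carboxylase, was at 162, 149 and 139.7 CPM and 229 and 239 CPM (0.64 ± 0.14, passed). Lactb2 (chr1:13623330-13660546, minus strand), a mitochondrial RNA-cleaving enzyme, was at 96.2, 113 and 89.0 CPM and 158 and 157 CPM (0.66 ± 0.15, passed), with 99.3, 104 and 101 CPM in sEVNORM. In each of the 3 the groups did not overlap, and the call held with any library left out. Rnf146 and Gm46218 overlap Echdc1 on the opposite strand.

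The 14 genes that DESeq2 called on these 5 libraries with adjusted P under 0.05 were Gm12248, Lbx1, Alx4, Prn, Dio2 and Mup10 upward and Ighv14-4, Cd300ld5, Gm10233, Pgk1-rs7, Ighg2c, Gm10163, Mup8 and Igkv1-88 downward. The smallest DESeq2 adjusted P values were 3.22e-13 for Gm12248, 9.67e-06 for Lbx1 and 0.000518 for Alx4 and Prn. Gm10233 and Pgk1-rs7, both processed pseudogenes, did not pass the edgeR test and overlapped between groups. Among these 5 libraries only sEVCTRL 1 held counts of them (158 and 109), so both DESeq2 calls rest on that library. No sterol gene was among the 14.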

How the data were processed

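RNA of whole mammary gland was sequenced from poly(A) libraries made with a Lexogen SENSE kit. According to the study's methods and the submitters' processing notes, the authors aligned reads with STAR to mm10 (GRCm38) and estimated counts per Ensembl gene with RSEM 1.2.12; the counts deposited are whole numbers that carry no scaling, and the rounding of the RSEM estimates is not given in the sources used here. Groups came from the sample titles. Symbols and positions were matched from GENCODE M21 for 51596 of 51789 genes, the rest holding 0.0389% of counts.

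Genes were filtered with filterByExpr (minimum count 10), scaled by TMM and tested with edgeR 4.0.16 in R 4.3.3 (glmQLFit and glmQLFTest, two-sided), with all 3 groups and 8 libraries in 1 fit, with 5 residual degrees of freedom; P values measure the spread between these libraries. DESeq2, another scaling, other filters, a skeletal muscle covariate, the replicate number as a block and each library left out were alternatives. Named were the 10 genes with the highest and the 10 with the lowest change among those past 0.05 without overlap and with a group mean of at least 1 CPM, the 10 smallest P, up to 5 per list past 0.05 (otherwise the smallest P), genes the study names for this tissue and tissue markers; further list members are named as examples, chosen after their values were seen. Members, lists and rule were chosen with earlier results of these data known. Genes at 0 in a group are given as bounds from a floor of 3 counts per library. Whether counting used strand is not given in the sources used here, so genes that overlap another (among them Idi1, Hmgcs1, Cyp51, Srebf1, Mlxipl, Dio2, Prn, Pkm, Col3a1, Col5a1, Wnt5a and Echdc1) are less certain. Smallest difference between libraries: a chi-square of 27.6 per degree of freedom, so none was deposited more than once. Counts and medians of lists cover every tested member; a few members are not reported here by name.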

Additional observations from a re-analysis of the deposited data

How the results depend on the processing

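The number of genes past the unadjusted threshold (438) was between 300 and 592 with DESeq2 size factors, a filter of at least 10 counts in every library, edgeR or DESeq2 on only sEVHYP and sEVCTRL, DESeq2 on all 8 libraries and a skeletal muscle covariate, and 672 without a filter on low counts, where more genes were tested. With 1 library left out it ranged from 341 to 1472, the highest without sEVCTRL 2. The number past an adjusted P of 0.05 (0 with edgeR) was 14 with DESeq2 on only sEVHYP and sEVCTRL, 4 with DESeq2 on all 8 libraries, and 0 to 1 with 1 library left out of the edgeR fit. Genes without overlap (2283) ranged from 2246 to 7731 with 1 library left out, the highest without sEVHYP 1, and were 1807 with at least 10 counts in every library, where fewer genes were tested. With the replicate number as a replicate block 401 genes passed, 243 of them among the 438. Deviations from the group mean correlated at 0.369 and 0.337 for same-numbered sEVCTRL and sEVHYP libraries. With only 2 sEVHYP libraries their deviations are exact opposites (-0.369 for sEVCTRL 1 with sEVHYP 2), so these values cannot decide on pairing. For same-numbered sEVCTRL and sEVNORM libraries the correlations were -0.285, -0.416 and -0.0131, and the numbers were not taken as pairs. Of 61 named genes that passed, 17 passed with any one library left out: 2610035D17Rik, Adamts18, Alx4, Cd300ld5, Echdc1, Gm10163, Gm12248, Hmgcs1, Idi1, Ighv14-4, Lactb2, Lbx1, Mup10, Mup8, Prn, Vcan and Wnt5a.

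Among named genes, changes of sign were found in those that had not passed. With 1 library left out their log2 fold changes ranged from -1.14 to 0.0513 for Ifit2, -3.74 to 0.83 for Tnnt1, -0.28 to 0.61 for Vegfa, -0.56 to 1.02 for Mki67 (1.02, past the threshold, without sEVCTRL 1), -0.118 to 0.196 for Krt14, -0.76 to 0.48 for Trp63, -0.39 to 0.15 for Myh11, -0.0914 to 0.32 for Krt18, -0.21 to 0.25 for Krt5, -0.51 to 0.50 for Plin1 and -0.58 to 0.22 for Fabp4. The muscle covariate gave 0.44 for Mki67, -0.188 for Krt14, -0.181 for Krt5 and -0.0502 for Plin1, and Krt5 was -0.00127 with DESeq2 size factors and -0.00241 with DESeq2 on only sEVHYP and sEVCTRL. The cause of these shifts was not tested. Counts of list members under each setting were an alternative chosen after seeing the data. A floor of 3 counts lies at 0.121 to 0.164 CPM, so lower levels are not resolved.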
